A study of Fragaria x ananassa with 6 samples.

Results

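The gene models described here are the 119 strawberry gene models whose signal was strongly raised in floral buds that overexpress FaPRE1 on every array of the series. They are 119 of 34797 gene models on the array. A gene model is a predicted gene of the strawberry genome project, carried on the array as a number without a gene name. The members were chosen on the measured values themselves. On each array the log2 ratio of FaPRE1-OX over control processed signal was centred on the array's median and averaged over the spots of a gene model, and a member had to reach a ratio of 1.5 (2.83-fold) or more on all 3 arrays. Both dyes also had to be well above background on at least 1 spot of every array, which 19594 gene models met. The members are 0.607% of these, and at the other end 492 gene models lay at -1.5 or lower on all 3 arrays.

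The study compared buds of Fragaria × ananassa, the cultivated octoploid strawberry, that carried the construct pK7WG2-FaPRE1 (FaPRE1-OX, 3 samples, buds labelled as elongated) with buds that carried the empty vector (control, 3 samples, buds labelled as normal). The construct was brought into explants with Agrobacterium tumefaciens strain AGL0. Each array held 1 FaPRE1-OX and 1 control sample of the same replicate number, in different dyes, and FaPRE1-OX was in Cy3 on arrays 1 and 3 and in Cy5 on array 2. Plant age, the promoter of the construct and the number of transgenic lines are not stated in the sources used here. The spread between samples may be of technical origin. The token PRE3 stands in the titles of the FaPRE1-OX samples, whereas their other labels name FaPRE1.

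FaPRE1 is 1 of the PRE proteins, short regulators built around a helix-loop-helix domain. In Arabidopsis, PRE proteins lack the basic region that binds DNA and act by pairing with other helix-loop-helix proteins, and they are known as promoters of cell elongation in response to growth hormones. A PRE protein therefore acts on transcription through its partners, not by binding promoters itself. None of the 119 members carried a gene name in the files, and 0 of 119 matched the available reference gene table, so no function is given to any of them. Whether a probe separates the homoeologous copies of a gene in this octoploid was not tested.

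The targeted gene was read first. FaPRE1, which carries its symbol on the array, had log2 ratios of 5.33, 5.97 and 4.28 on arrays 1, 2 and 3. In FaPRE1-OX buds 1, 2 and 3 it gave log2 signals of 8.59, 8.74 and 8.04, against 6.09, 6.64 and 6.37 in control buds 1, 2 and 3. All 3 FaPRE1-OX buds were above all 3 controls. Only 4 of the 6 samples had this probe well above background, so the control levels are partly bounds. The ratios rest on these control signals too. In the limma fit described below, the difference for FaPRE1 was 2.09 ± 0.23 (SE, n = 3 arrays), against a mean ratio of 5.19. For the tissue only FaYabby and FaAP2(1), named after plant regulator families, could be read, and both were well above background in 6 of 6 samples. Their presence alone does not show that the tissue was floral.

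In its correlations FaPRE1-OX 3 stood apart from the rest. Across the 19594 gene models, the log2 signal of FaPRE1-OX 3 correlated with that of FaPRE1-OX 1 and 2 at 0.953 and 0.951, whereas FaPRE1-OX 1 and 2 correlated with each other at 0.997 and the controls among themselves at 0.994 to 0.997. In Cy3, spots well above background made up 57.7% in FaPRE1-OX 3, 63.0% in FaPRE1-OX 1 and 62.8% in control 2. In Cy5 they made up 63.9% in control 3, 67.4% in control 1 and 67.2% in FaPRE1-OX 2. Array 3 thus had the lowest share in both dyes. No spot was saturated on any array (0 spots). Between arrays 1 and 2 the ratios of gene models with 2 spots of 1 probe differed with an SD of 0.253, against 0.169 from the duplicate spots alone, while array 3 differed from them with an SD of 0.768 and 0.791. The labels give arrays 1 and 2 as separate samples, with the dyes exchanged between them, and they were counted as such. Whether they hold separate extracts cannot be told apart from these values, since exchanged dyes alone would add to the spread of duplicate spots.

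The raised gene models had a median log2 ratio of 2.23 on array 1, 2.48 on array 2 and 2.08 on array 3. Over all gene models above background the medians were -0.03, 0.15 and -0.12. The members ran from 1.52 to 4.90 on array 1, from 1.58 to 5.60 on array 2 and from 1.51 to 4.86 on array 3. Averaged over arrays, the median member was at 2.32, a 4.99-fold higher signal in FaPRE1-OX. These values chose the members and describe them only. The bulk of the members sat low in this range. Of the 119, 33 had a mean ratio under 2, 69 from 2 to under 3, 11 from 3 to under 4 and 6 at 4 or more.

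**Figure D1:**
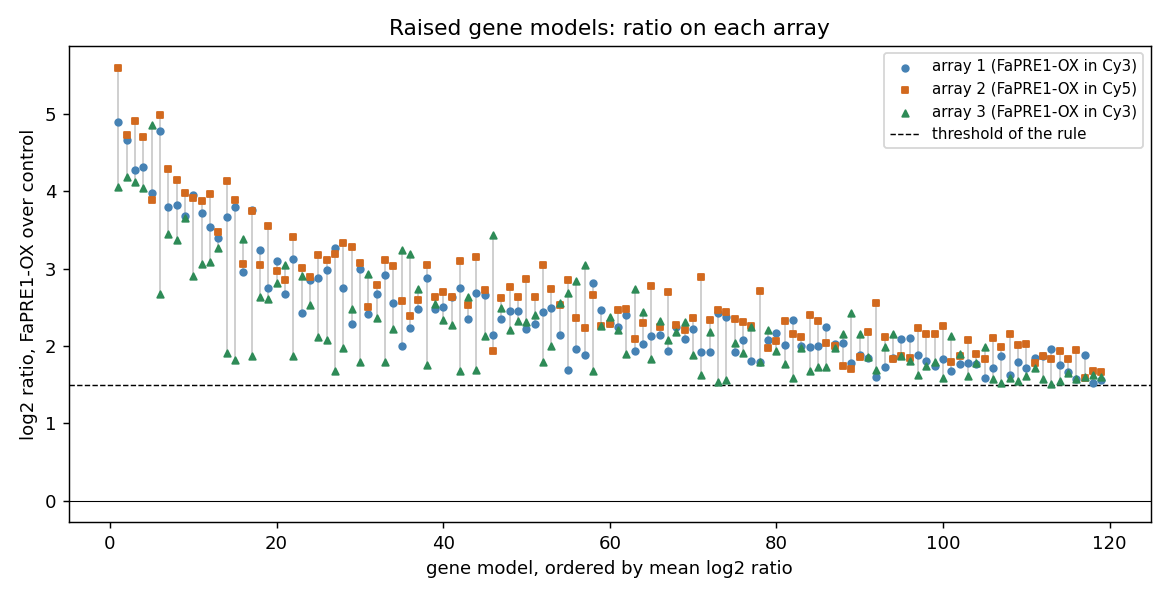
Log2 ratio of FaPRE1-OX over control (vertical axis) for each of the 119 raised gene models, ordered by their mean over the arrays (horizontal axis, rank). Each point is 1 array, the grey line joins the 3 values of a gene model and the dashed line is the threshold of 1.5. Array 2 gave the highest value in 77 gene models and array 3 the lowest in 74. The order array 2, 1, 3 from high to low held in 59 of the 119 and in 44.2% of all gene models above background.

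The 6 gene models with a mean ratio of 4 or more were gene14862, gene05085, gene19093, gene09788, gene09299 and gene22423. The gene model with the largest mean ratio, gene14862, had log2 ratios of 4.90, 5.60 and 4.06 on arrays 1, 2 and 3. FaPRE1-OX 1, 2 and 3 had log2 signals of 10.66, 10.78 and 9.81, against 6.81, 6.95 and 6.90 in controls 1, 2 and 3. FaPRE1-OX 3 was the lowest of its group and still far above the controls, which lay close together. Its fitted difference was 3.60 ± 0.25 (SE, n = 3 arrays).

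Both gene05085 and gene09788 combined a large ratio with a small spread of the log2 signal over the FaPRE1-OX samples. For gene05085 the log2 signal was 15.00, 14.87 and 14.74 in FaPRE1-OX buds and 10.39, 10.46 and 10.52 in control buds, with ratios of 4.66, 4.73 and 4.18. For gene09788 it was 15.49, 15.32 and 15.13 in FaPRE1-OX buds and 11.18, 10.86 and 11.05 in control buds, with ratios of 4.32, 4.71 and 4.05. The SD over the 3 FaPRE1-OX samples was 0.13 in gene05085 and 0.18 in gene09788, small beside the gap between the groups. They also had the largest fitted differences of all members in limma, at 4.41 ± 0.14 for gene05085 and 4.33 ± 0.12 for gene09788 (SE, n = 3 arrays).

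The log2 signal also had a small spread within each group for gene19093. The ratios of these 3 gene models were less tight. Their range over the arrays was 0.79 in gene19093, 0.55 in gene05085 and 0.66 in gene09788, against a median of 0.52 over the members. The log2 signals of gene19093 were 11.47, 11.54 and 11.26 in FaPRE1-OX buds and 7.68, 7.75 and 7.66 in control buds, and its ratios were 4.28, 4.91 and 4.12. The fitted difference was 3.74 ± 0.12 (SE, n = 3 arrays). The other 2 members of the top group departed on array 3 in opposite directions. In gene09299 FaPRE1-OX 3 was the highest sample, at 9.65, with 8.56 and 8.70 in FaPRE1-OX 1 and 2 and 6.29, 6.76 and 6.59 in the controls, and the ratio on array 3 was 4.86 after 3.98 and 3.89 on arrays 1 and 2. Its fitted difference was 2.30 ± 0.22 (SE, n = 3 arrays), against a mean ratio of 4.25 by the rule, and not every one of its spots was well above background. In gene22423 FaPRE1-OX 3 was the lowest of its group, at 8.32, with 10.37 and 10.43 in FaPRE1-OX 1 and 2 and 6.67, 7.14 and 6.77 in the controls. Its ratios of 4.78, 4.99 and 2.68 had the widest range of all members, 2.31, and its fitted difference of 2.96 had an SE of 0.52.

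**Figure D2:**
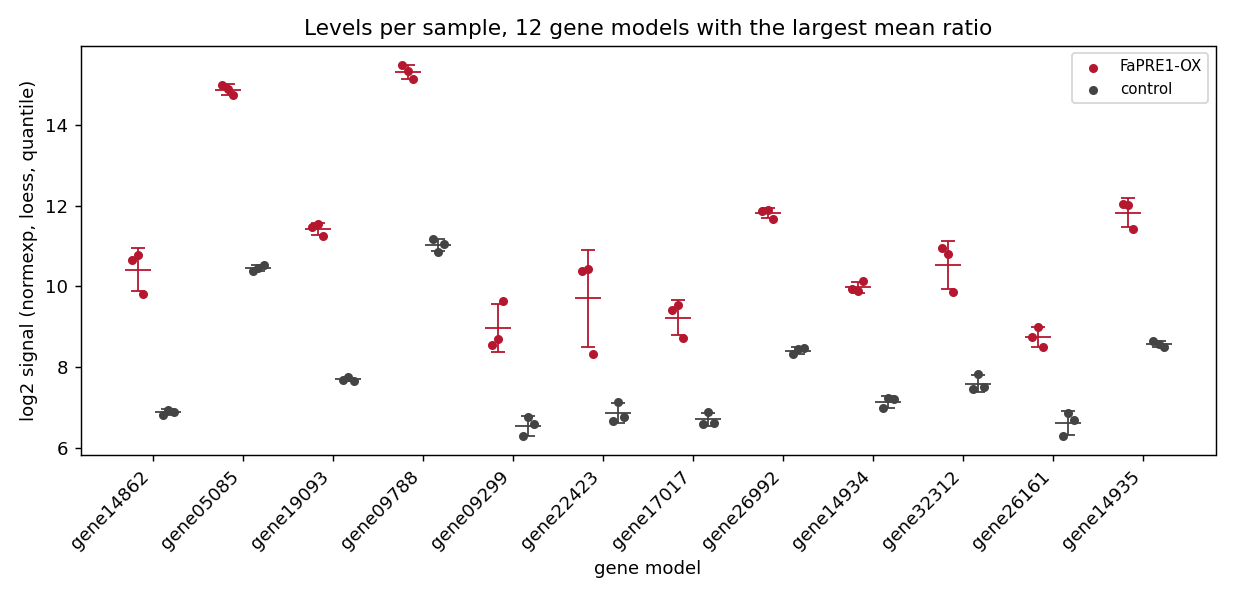
Log2 signal after normexp, loess and quantile normalization (vertical axis) of the 12 raised gene models with the largest mean ratio, by sample. Points are samples 1, 2 and 3 from left to right, FaPRE1-OX left of control, and bars give the mean ± SD (n = 3 each). The low FaPRE1-OX point of gene22423 is FaPRE1-OX 3. FaPRE1-OX lies wholly above control in all 12, as in 22.3% of all gene models above background, and the rule used this contrast.

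The next 6 gene models by mean ratio were gene17017, gene26992, gene14934, gene32312, gene26161 and gene14935. In gene26992 the log2 signal was 11.87, 11.90 and 11.67 in FaPRE1-OX buds and 8.32, 8.45 and 8.48 in control buds. In gene17017 it was 9.41, 9.55 and 8.73 in FaPRE1-OX buds and 6.61, 6.91 and 6.62 in control buds. FaPRE1-OX 3 was the lowest FaPRE1-OX sample of both, by a small step in gene26992 and by a larger one in gene17017. In gene32312 the levels were 10.95, 10.81 and 9.86 in FaPRE1-OX buds and 7.46, 7.84 and 7.50 in control buds. In gene26161 they averaged 8.75 ± 0.25 in FaPRE1-OX buds and 6.62 ± 0.29 in control buds (SD, n = 3 each). The ratios of gene17017 were 3.80, 4.29 and 3.45 on arrays 1, 2 and 3. Array 3 gave the lowest ratio in each of these 4 gene models.

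Gene model numbers that follow each other directly occurred once among the members, in gene14934 and gene14935. The positions of the 2 are not given in the sources used here. In gene14934 the log2 signal was 9.93, 9.88 and 10.13 in FaPRE1-OX buds and 6.98, 7.25 and 7.21 in control buds, with ratios of 3.68, 3.97 and 3.66. In gene14935 it was 12.04, 12.01 and 11.42 in FaPRE1-OX buds and 8.66, 8.58 and 8.51 in control buds, with ratios of 3.54, 3.96 and 3.08. The ratios of both were alike on arrays 1 and 2. On array 3 they parted, with FaPRE1-OX 3 the highest FaPRE1-OX sample of gene14934 and the lowest of gene14935. Only 1 other pair of members, gene26799 and gene26801, lay within 5 numbers of each other, and it was named after the count was seen.

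Most gene models that met the threshold on other arrays and missed it once missed it on array 3. On arrays 1, 2 and 3 alone, 462, 635 and 282 gene models reached 1.5. Arrays 1 and 2 shared 426 such gene models, and 119 of these (27.9%) also reached 1.5 on array 3. Another 258 lay from 0 to under 1.5 on array 3 and 49 lay under 0, with a median over the 426 of 1.03. The other pairs of arrays lost few gene models to the array left over. Arrays 1 and 3 shared 126 gene models, of which 94.4% reached 1.5 on array 2, and arrays 2 and 3 shared 136, of which 87.5% reached it on array 1. Among gene models lowered to -1.5 or less on arrays 1 and 2, 492 of 1235 (39.8%) were also lowered to that extent on array 3.

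Within the members the ratios of arrays 1 and 2 ran closely together and those of array 3 less so. Across the 119 gene models, which all passed the same threshold and are not independent replicates, Pearson's r was 0.932 between arrays 1 and 2, 0.629 between arrays 1 and 3 and 0.622 between arrays 2 and 3. Spearman's rho was 0.845, 0.512 and 0.483. The differences between arrays 1 and 2 had an SD of 0.287 over the members and 0.265 over all gene models above background. Array 2 lay above array 1 in 94 of the 119 members and in 81.0% of all gene models above background, and the median gap was 0.18 in both. The 2 arrays have opposite dyes, and the part of the dye in this gap was not tested.

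**Figure D3:**
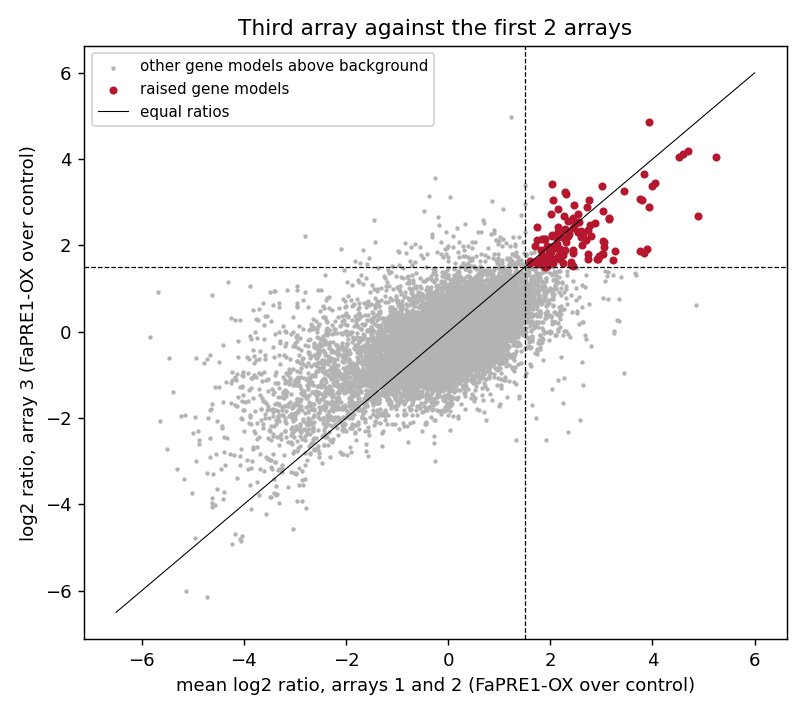
Log2 ratio of FaPRE1-OX over control on array 3 (vertical axis) against the mean of arrays 1 and 2 (horizontal axis), for the 119 raised gene models in red and the other gene models above background in grey. The solid line marks equal ratios and the dashed lines the threshold of 1.5. Of the 119, 87 lie under the line of equal ratios and 32 above it.

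On array 3, 87 members lay under the mean of their other ratios and 32 above it, with a median departure of -0.27. Array 3 lay low elsewhere too. Its median gap to array 1 was -0.07 over all gene models above background and -0.16 over the members. To array 2 it was -0.24 and -0.37. In 76 members array 3 was within 0.5 of that mean. It was from 0.5 to 1 under it in 20 members, at least 1 under it in 15 and at least 0.5 over it in 8. The departures ran from -2.21 in gene22423 to 1.39 in gene32103, which was named after its values were seen. The ratios of gene32103 were 2.14, 1.94 and 3.44. Its levels were 8.36, 8.35 and 9.45 in the FaPRE1-OX buds, and 6.99, 7.24 and 7.00 in control buds. Only FaPRE1-OX 3 stood apart.

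The order of the ratios was array 2, then 1, then 3 from high to low in 59 members, and the same order held in 44.2% of all gene models above background. The reverse place of array 3 at the top, over array 2 and then array 1, held in 17 members, against 23.8% of all gene models above background. The range over the 3 arrays had a median of 0.52 and ran from 0.046 to 2.31. The members with the smallest ranges were gene22357, gene24629, gene12924 and gene25823. The ratios of gene22357 were 2.02, 2.00 and 1.98, with a log2 signal of 7.41, 7.54 and 7.38 in FaPRE1-OX buds and 6.57, 6.68 and 6.66 in control buds. The ratios of gene25823, which had the smallest mean ratio of the 119, were 1.56, 1.67 and 1.60, with a log2 signal of 7.44, 7.52 and 7.41 in FaPRE1-OX buds and 6.65, 6.85 and 6.61 in control buds. No FaPRE1-OX sample stood apart from its group in either. In gene24629 the ratios were 2.30, 2.29 and 2.37, and in gene12924 they were 2.25, 2.27 and 2.17.

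At the other end, gene22423, gene03461, gene06898 and gene18275 had the largest ranges. The ratios of gene03461 were 3.66, 4.13 and 1.91, with a log2 signal of 10.41, 10.51 and 8.88 in FaPRE1-OX buds and 7.25, 7.52 and 7.43 in control buds. The ratios of gene06898 were 3.80, 3.88 and 1.82, with a log2 signal of 8.82, 8.83 and 7.28 in FaPRE1-OX buds and 6.47, 6.91 and 6.55 in control buds. The ratios of gene18275 were 3.76, 3.75 and 1.87, with a log2 signal of 9.79, 9.94 and 8.28 in FaPRE1-OX buds and 6.97, 7.39 and 7.09 in control buds. In all 4 the low array was array 3 and the low FaPRE1-OX sample was FaPRE1-OX 3, while FaPRE1-OX 1 and 2 lay close together. The SD over the 3 controls was 0.25, 0.14, 0.24 and 0.21 in gene22423, gene03461, gene06898 and gene18275. The median of this SD over all members was 0.121. All 4 had every FaPRE1-OX level above every control level, as 22.3% of all gene models above background did. The rule used this contrast, and in gene06898 FaPRE1-OX 3 lay only 0.36 above the highest control.

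The channel in which array 3 departed was read from the levels. For each member the log2 signal of sample 3 was set against the mean of samples 1 and 2 of its group. In FaPRE1-OX the median departure was -0.22 with an SD of 0.581 over the members, and the lowest value was -2.08. In the controls it was -0.03 with an SD of 0.192 and a range from -1.29 to 0.31. The departure was larger in FaPRE1-OX 3 than in control 3 in 100 of the 119 members, and FaPRE1-OX 3 lay under the mean of FaPRE1-OX 1 and 2 in 81. Over all gene models above background the SDs were 0.583 in FaPRE1-OX and 0.196 in the controls, so this spread was of the same size in the members as elsewhere.

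**Figure D4:**
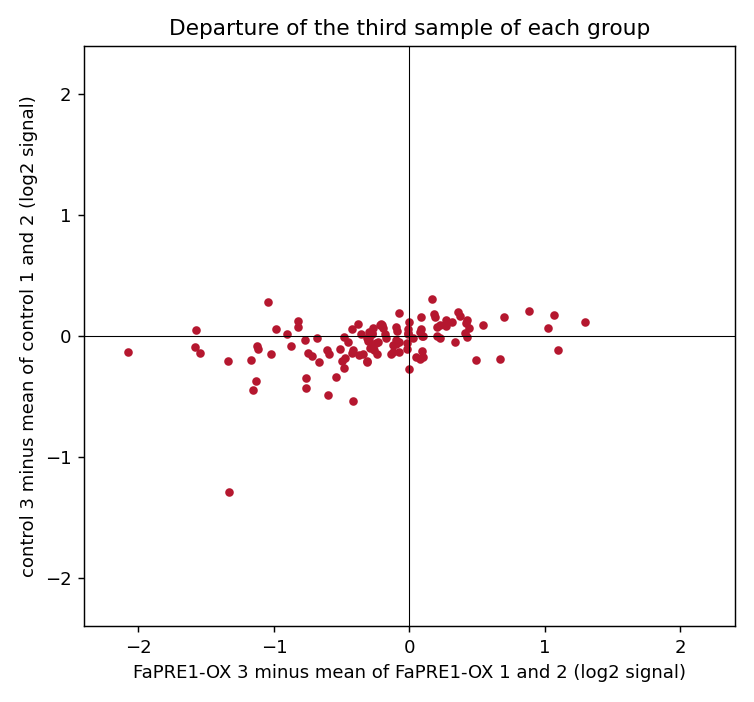
Log2 signal of FaPRE1-OX 3 minus the mean of FaPRE1-OX 1 and 2 (horizontal axis) against that of control 3 minus the mean of controls 1 and 2 (vertical axis), 1 point for each of the 119 raised gene models. The points spread from -2.08 to above 1 along the FaPRE1-OX axis and, but for 1 gene model at -1.29, close to 0 along the control axis.

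The classes of array 3 showed the same by level. In the 15 members with array 3 at least 1 under the other arrays, the samples had median log2 signals of 10.66, 10.78 and 9.81 for FaPRE1-OX 1, 2 and 3 and of 7.72, 7.84 and 7.88 for controls 1, 2 and 3. The median departure of sample 3 in these was -1.12 in FaPRE1-OX and -0.08 in the controls. In the 8 members with array 3 at least 0.5 over the other arrays, they were 8.52, 8.70 and 9.46 for FaPRE1-OX 1, 2 and 3 and 7.03, 7.23 and 7.10 for controls 1, 2 and 3. There the departure was 0.96 in FaPRE1-OX and 0.01 in the controls. In the 76 members with array 3 within 0.5, it was -0.08 in FaPRE1-OX and -0.02 in the controls. The 3 controls had similar medians in each of these classes, and the sample that moved was FaPRE1-OX 3. The classes were cut on the ratios of array 3 itself, so this describes the channel and tests nothing.

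The point that lay far down the control axis was gene16378, named after its values were seen. The log2 signals were 12.34, 12.44 and 11.05 in FaPRE1-OX buds and 10.51, 10.33 and 9.13 in control buds. Sample 3 was the lowest of both groups by a like step, and the ratios of 1.92, 2.35 and 2.04 held no sign of it. It had 1 spot on each array.

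Over the members, FaPRE1-OX 1 and 2 differed by a median of 0.087 in log2 signal, and FaPRE1-OX 3 differed from them by 0.340 and 0.362. The controls differed from each other by 0.113 to 0.158. FaPRE1-OX 1 and 2 were closer to each other than either was to FaPRE1-OX 3 in 91 of the 119. The SD over the 3 samples had a median of 0.217 in FaPRE1-OX and 0.121 in the controls, against 0.165 and 0.0948 over all gene models above background. The levels of the 3 FaPRE1-OX samples lay above those of all 3 controls in 118 of the 119 members, and in 22.3% of all gene models above background. Since the rule used this contrast, nothing is read from that count. The exception, gene04863, had a log2 signal of 7.83, 7.96 and 6.76 in FaPRE1-OX buds and 6.70, 6.80 and 6.38 in control buds. There FaPRE1-OX 3 fell just under control 2.

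In the fit across all 23200 gene models tested, limma on loess-normalized ratios with a term for the dye, the members had a median difference of 1.54 on the log2 scale (2.90-fold) and ranged from 0.48 to 4.41. The median over all gene models tested was -0.02. The fitted difference was 2 or more in 30 members, from 1.5 to under 2 in 33, from 1 to under 1.5 in 36 and under 1 in 20. The SE had a median of 0.128 and ran from 0.110 to 0.525. The fit differs from the rule in the signal, the background correction, the offset added before the log, the loess step and the weight of the arrays. The mean ratio of the rule exceeded that of the loess-normalized ratios by a median of 0.79, and the part of each step in this was not tested. The 20 members fitted under 1 had a median control level of 6.66 and a median ratio by the rule of 1.95. The 30 fitted at 2 or more had a median control level of 7.96 and a median ratio of 2.99. By fitted difference 56 of the members stood among the first 119 gene models, and the lowest of them at place 2455.

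No gene model was called above the control in this fit at a Benjamini-Hochberg adjusted p of 0.05 (0% of 23200, 0 members), where 1 residual degree of freedom was left. The smallest adjusted p of limma was 0.0594, and the members ran from 0.0594 to 0.149. At an unadjusted p under 0.05, 2932 gene models lay above the control, the 119 members among them. Without the dye term limma called 2274 gene models above the control (9.8%), of which 118 were members, and the members' adjusted p ran from 0.00207 to 0.0649. The members were chosen on the same ratios, so neither count is a test of them. With array 3 left out and no dye term, the median difference of the members was 1.55 and limma called 6498 gene models.

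The members did not differ only in size but also in the spots behind them. Each value rested on 2 spots for 86 members, on 1 spot for 32 and on 3 spots for 1. Every spot was well above background in both dyes on all arrays for 104 members. Between duplicate spots of a member, the largest SD of the log2 ratio on an array had a median of 0.228. It reached 1.41 in gene27067, named after its values were seen, which also had the smallest fitted difference, 0.48 ± 0.11 (SE, n = 3 arrays). The log2 signals were 6.99, 7.12 and 6.96 in FaPRE1-OX buds and 6.46, 6.65 and 6.52 in control buds, a narrow gap beside the ratios of 1.79, 2.72 and 1.79 that made it a member.

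Only gene19118 was read by more than 1 probe. The first probe gave log2 ratios of 1.83, 1.89 and 2.00 on arrays 1, 2 and 3, and the second gave 2.62, 2.84 and 2.91. The probes disagreed in size and shared the order of the arrays, and the control channel of the first was not well above background on array 3. The log2 signal of gene19118 was 7.83, 8.00 and 7.90 in FaPRE1-OX buds and 6.64, 6.84 and 6.68 in control buds. FaPRE1-OX 3 lay between the other FaPRE1-OX samples.

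The threshold cut through closely spaced values. Just inside it were gene08551 with ratios of 1.96, 1.83 and 1.51, gene00400 with 1.88, 1.99 and 1.52, and gene02383 with 1.52, 1.68 and 1.63. Just outside were gene01281 with 1.499, 1.78 and 3.11, gene14942 with 1.97, 2.14 and 1.49, and gene23288 with 1.53, 1.78 and 1.49. Array 3 decided 4 of these 6, and array 1 decided gene02383 and gene01281. The ratio of gene01281 on array 3 was above that of most members.

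Among the 45 features with a gene symbol, 33 were above background by the same measure, and 2 of them met the rule. FaDFR1C, named for dihydroflavonol reductase, an enzyme on the way to anthocyanins and proanthocyanidins, had ratios of 1.52, 1.60 and 2.25. The levels of FaDFR1C were 12.35, 12.32 and 13.27 in FaPRE1-OX buds and 10.88, 11.03 and 10.89 in control buds. FaPRE1-OX 3 was the highest sample, as in gene09299. FaPLB, named for pectate lyase, an enzyme that degrades pectin in cell walls, had ratios of 2.29, 2.97 and 1.95. The levels of FaPLB were 10.44, 10.56 and 10.09 in FaPRE1-OX buds and 8.40, 8.16 and 8.36 in control buds. FaPRE1-OX 3 was the lowest of its group, and in both genes every FaPRE1-OX level was above every control level. This held in 22.3% of all gene models above background, and both features were picked by the same contrast. FaPRE1 itself was not among them, since its control signal was not well above background on every array. The members are gene model numbers only, so a feature with a symbol could not be a member in any case. Of 274 other features, mostly sequence contigs, 125 were above background and 0 met the rule.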

How the data were processed

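Total RNA of 3 FaPRE1-OX and 3 control floral buds was hybridised in pairs, 1 of each group per array, on a custom 60-mer array. Groups, replicate numbers and dyes came from the sample labels. The authors deposited scanner output with spot, background and processed intensity for both dyes on a linear scale, made with Agilent Feature Extraction 10.7 per the submitters' processing notes, or 10.7.3.1 by the headers of the files. The scanner's own log ratio and p columns were not used. There were 62976 spots on an array, 61657 without the controls, and all arrays shared 1 slide and 1 scan. No per-sample column of the files was left unmapped.

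Ratios of the rule were log2 of processed intensity, centred on each array's median over spots that were not controls, and averaged over spots. For the fit, median spot intensity was background-corrected with normexp (offset 50) and normalized by loess within array, spots were averaged, and the within-array ratio was fitted in limma 3.58.1 (R 4.3.3) with a dye term, for gene models that at least 3 of the 6 samples had well above background (two-sided, Benjamini-Hochberg adjustment, threshold 0.05). Array 2, alone in its dye orientation, weighs as much in this fit as arrays 1 and 3 together. Levels per sample are log2 signals for which loess was followed by quantile normalization of the average intensity. The number of arrays limits the precision. Since each ratio comes from 1 array, the fit keeps the pairing of replicate numbers, which the labels tie to a shared array. The fits were tested on simulated data.

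The 34797 gene model numbers and 45 symbols were compared with a RefSeq gene table of another assembly, and 0 matched. The rule, the lists and the tests were chosen with earlier results of these data known. Members named were the 12 with the largest mean ratio, the 4 with the smallest and 4 with the largest range over arrays, those with several probes, the 3 nearest the threshold on each side, and those with directly following numbers, together with FaPRE1. Others are marked as named after their values were seen. Alternatives changed the threshold, the signal and its normalization, the filters on dim or irregular spots, the dye term and the replicates.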

Additional observations from a re-analysis of the deposited data

How the results depend on the processing

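The number of raised gene models moved with the threshold, with the filter on dim spots and with the signal and its normalization. It was 119 at a ratio of 1.5, 403 at 1 and 47 at 2. With median spot intensity, normexp (offset 50) and loess in place of the processed signal 44 were left, and with normexp and median centring 24, all of them among the 119. These settings change several steps at once, and the part of each was not tested. Without the filter on dim spots the rule held for 291 gene models, and with every spot required to be well above background for 104. Leaving out irregular spots or taking the median over spots gave 119 each. Without 1 replicate the rule held for 137 to 451 gene models, with 451 when array 3 was left out, and these held the 119. Only 3 arrays stand behind each value.

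The members' median fitted difference was 1.54. Processed signals gave 2.35, median centring 1.67 and an offset of 16 gave 1.79, and it stayed from 1.54 to 1.55 when 1 replicate was left out. Averaging arrays 1 and 2 as 1 replicate with no dye term gave 1.54, and no dye term alone 1.55. Without the replicate block, with the 6 channels as separate samples, it was 1.54, which in this balanced design is the same value by construction and says nothing of the pairing. The median of all gene models stayed within -0.03 and 0.05 in these settings. The number of gene models that limma called above the control moved far more. It was 0 in the fit of the report, 466 from processed signals, 383 under median centring, 234 at an offset of 16, 83 with scaling between arrays and 2274 with no dye term. Without the replicate block, thus ignoring the pairing, it was 1604. It was 0 with a filter on all 6 samples and with no filter. With arrays 1 and 2 averaged and no dye term it was 0, against the 2274 with no dye term alone. It was 0 to 6498 when 1 replicate was left out, with 6498 without replicate 3. The cause of these changes was not tested. For the 23 members that the rule for names covers, 36 of 207 values under the alternatives moved by more than 1 SD between replicates and 171 did not. Their sign was fixed by the choice of members. The gene models just outside the threshold and FaPRE1 were not run under the alternatives.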
